A study of Mus musculus with 16 samples.

Results

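The 10 genes described here code for 5 Notch ligands (Dll1, Dll3, Dll4, Jag1 and Jag2) and for 5 transcription factors of the Hes and Hey families (Hes1, Hes5, Hey1, Hey2 and Heyl), out of 22350 protein-coding genes. The genes were chosen by name, with earlier results of these data known. Their peaks are those that overlapped the annotated gene or lay within 5 kb of it, which gave 12 peaks from the list of 4992 for total Jarid2 and 12 from the list of 4502 for its dimethylated form, Jarid2-K116me2. Of the 10 genes, 8 had a peak of both antibodies, namely 4 of the 5 ligands and 4 of the 5 Hes and Hey genes. Jag2 and Hes1 had no peak of either. Over all protein-coding genes, 18.1% had a Jarid2 peak and 16.0% had a Jarid2-K116me2 peak by the same rule. Between ESC and EB, none of the 6 genes that could be tested for H3K27me3 coverage passed the test. Over all 4747 genes tested, coverage was higher in EB at 674 and lower at 8, so that a count of 0 among 6 genes is near the share over all genes. Among the 6, Dll4 was already covered over the whole stretch measured in nearly all libraries, so that a rise could not be called there. When each library was cut to its strongest peaks of a like total length, 9 genes were higher and 16 lower of 415.

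Jarid2 is a partner of PRC2, the Polycomb complex that trimethylates lysine 27 of histone H3 (H3K27me3), and it is itself methylated on a lysine, K116. The antibodies against total Jarid2 and against its dimethylated form (Jarid2-K116me2) were each used on 1 ChIP sample from E14, a mouse embryonic stem cell (ESC) line with its own Jarid2 gene, grown in serum and LIF. H3K27me3 was mapped in 12 libraries, all from Jarid2 -/- cells: the knockout itself (KO), and the same cells carrying a bacterial artificial chromosome (BAC) with Jarid2 (WT) or with Jarid2 whose K116 was changed to alanine (K116A). Each of these lines gave 2 replicates as undifferentiated ESC in serum and LIF on gelatin, and 2 as embryoid bodies (EB) made in hanging drops, 8 days after removal of LIF.

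The ESC lines of the H3K27me3 experiment therefore differ from E14, the rescues are single lines, and an EB holds many cell types, so that a broader domain and more cells carrying it cannot be told apart. The peak lists show no RNA and cannot check the state of the Jarid2 gene. Among 8 genes active in ESC (Pou5f1, Nanog and others), 1 had a Jarid2 peak, and H3K27me3 covered at least 500 bp of 0 to 1 of them in the ESC libraries and 1 to 4 in the EB libraries. All 7 annotated genes of a differentiation list (Gata4, Sox17, Pax6 and others) had a Jarid2 peak. The H3K27me3 libraries were of very unequal yield. The broad peaks covered 2.31 Mb of the genome in WT ESC replicate 1 (1478 peaks) and 8.03 to 55.0 Mb in the other libraries. In each of the 3 ESC lines replicate 1 covered less than replicate 2. The study took its own peak set for ESC against EB from the replicate 2 libraries, which it describes as of higher quality. The peak files hold no read numbers. By the read numbers in the supplement of the study, which are not analysed here, WT ESC replicate 1 was sequenced most deeply of the ESC libraries although it had the fewest peaks. The tests of ESC against EB below are also given without this library.

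Notch signalling passes between cells that touch. A ligand on one cell binds a Notch receptor on its neighbour, proteases free the intracellular part of the receptor, and this part enters the nucleus and turns the DNA-binding protein RBPJ from a repressor into an activator. The Hes and Hey genes are the best known targets, and their bHLH proteins repress further genes, among them proneural genes. In ESC the pathway is known for its role once the cells leave pluripotency, in particular in neural and cardiovascular fates.

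The promoters of 5 of the genes are shown as the 250 bases before the start site, from the reference genome NCBIM37 (mm9), read 5′ to 3′ on the strand of the gene. They were picked to set the 2 genes without a peak (Jag2 and Hes1) beside a ligand in the top score class (Dll4) and the peak-bearing Hes and Hey genes that hold an RBPJ core (Hes5 and Hey2). Capitals mark the RBPJ core, TGGGAA or its reverse complement TTCCCA.
Dll4 promoter, chr2:119151270-119151519, plus strand: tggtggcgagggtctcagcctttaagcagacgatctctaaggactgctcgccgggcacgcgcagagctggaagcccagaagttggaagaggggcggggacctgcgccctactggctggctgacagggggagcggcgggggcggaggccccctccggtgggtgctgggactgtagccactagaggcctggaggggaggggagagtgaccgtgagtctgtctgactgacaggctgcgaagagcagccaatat
Jag2 promoter, chr12:114167707-114167956, minus strand: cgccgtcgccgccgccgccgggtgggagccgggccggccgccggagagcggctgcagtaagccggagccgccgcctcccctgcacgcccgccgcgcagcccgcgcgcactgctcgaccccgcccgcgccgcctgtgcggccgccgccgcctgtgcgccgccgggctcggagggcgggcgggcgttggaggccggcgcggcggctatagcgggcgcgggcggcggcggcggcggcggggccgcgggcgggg
Hes1 promoter, chr16:30065176-30065425, plus strand: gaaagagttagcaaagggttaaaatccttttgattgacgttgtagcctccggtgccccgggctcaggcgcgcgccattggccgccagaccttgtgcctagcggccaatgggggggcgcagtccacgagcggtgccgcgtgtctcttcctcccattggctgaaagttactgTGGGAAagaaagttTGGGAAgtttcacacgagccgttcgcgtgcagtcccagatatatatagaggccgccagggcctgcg
Hes5 promoter, chr4:154334782-154335031, plus strand: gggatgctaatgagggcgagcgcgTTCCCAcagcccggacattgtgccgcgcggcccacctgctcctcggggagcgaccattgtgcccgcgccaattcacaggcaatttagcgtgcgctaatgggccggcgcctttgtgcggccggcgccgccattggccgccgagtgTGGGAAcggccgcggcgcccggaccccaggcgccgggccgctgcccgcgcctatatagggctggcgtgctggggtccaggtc
Hey2 promoter, chr10:30562608-30562857, minus strand: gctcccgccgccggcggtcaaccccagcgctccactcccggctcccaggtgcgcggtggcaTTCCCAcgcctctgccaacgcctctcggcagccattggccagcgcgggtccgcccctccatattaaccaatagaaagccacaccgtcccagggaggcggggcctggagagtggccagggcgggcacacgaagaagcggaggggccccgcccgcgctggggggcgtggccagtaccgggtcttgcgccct
Hes1 held the core at positions −80 and −66 relative to the start site, both on the strand of the gene. Hes5 held it at −226 on the opposite strand and at −82 on its own strand, and Hey2 held it at −189 on the opposite strand. The other 7 genes held none in this stretch. Over all protein-coding genes, 21.0% of promoters of the same length held at least 1 core on either strand and 2.64% held at least 2, so a single match is common. A letter match is a description of the sequence and not a site of binding. Jag2, which had no Jarid2 peak, had the most CpG dinucleotides of the 10 promoters, 54, against a median of 9 over all promoters. Its ratio of observed to expected CpG over 1 kb around the start site was 1.07, against 0.671 at Hes1, a median of 0.801 over the 10 genes, 0.709 over start sites under a Jarid2 peak and 0.554 over all protein-coding genes. Heyl, which had peaks of both antibodies, had 4 CpGs in the 250 bases and a ratio of 0.538. The CpG content of the promoter thus did not sort the 10 genes into those with and those without a peak.

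The same promoters were searched on both strands for the letters that Hes and Hey proteins are known to bind, the N-box (CACNAG) and the class C E-box (CACGNG). The N-box was found at 3 of the 10 genes (Dll3, Dll4 and Hes1), against 35.6% of all promoters. The class C E-box was found at 4 (Dll4, Jag1, Hes1 and Hey1), against 26.2%. In the stretch printed above, Hes1 held 3 matches to the N-box and 4 to the class C E-box. The letters CACGAG match both patterns, so that these counts share sites. With 10 genes, these counts are near the shares over all promoters.

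**Figure D1:**
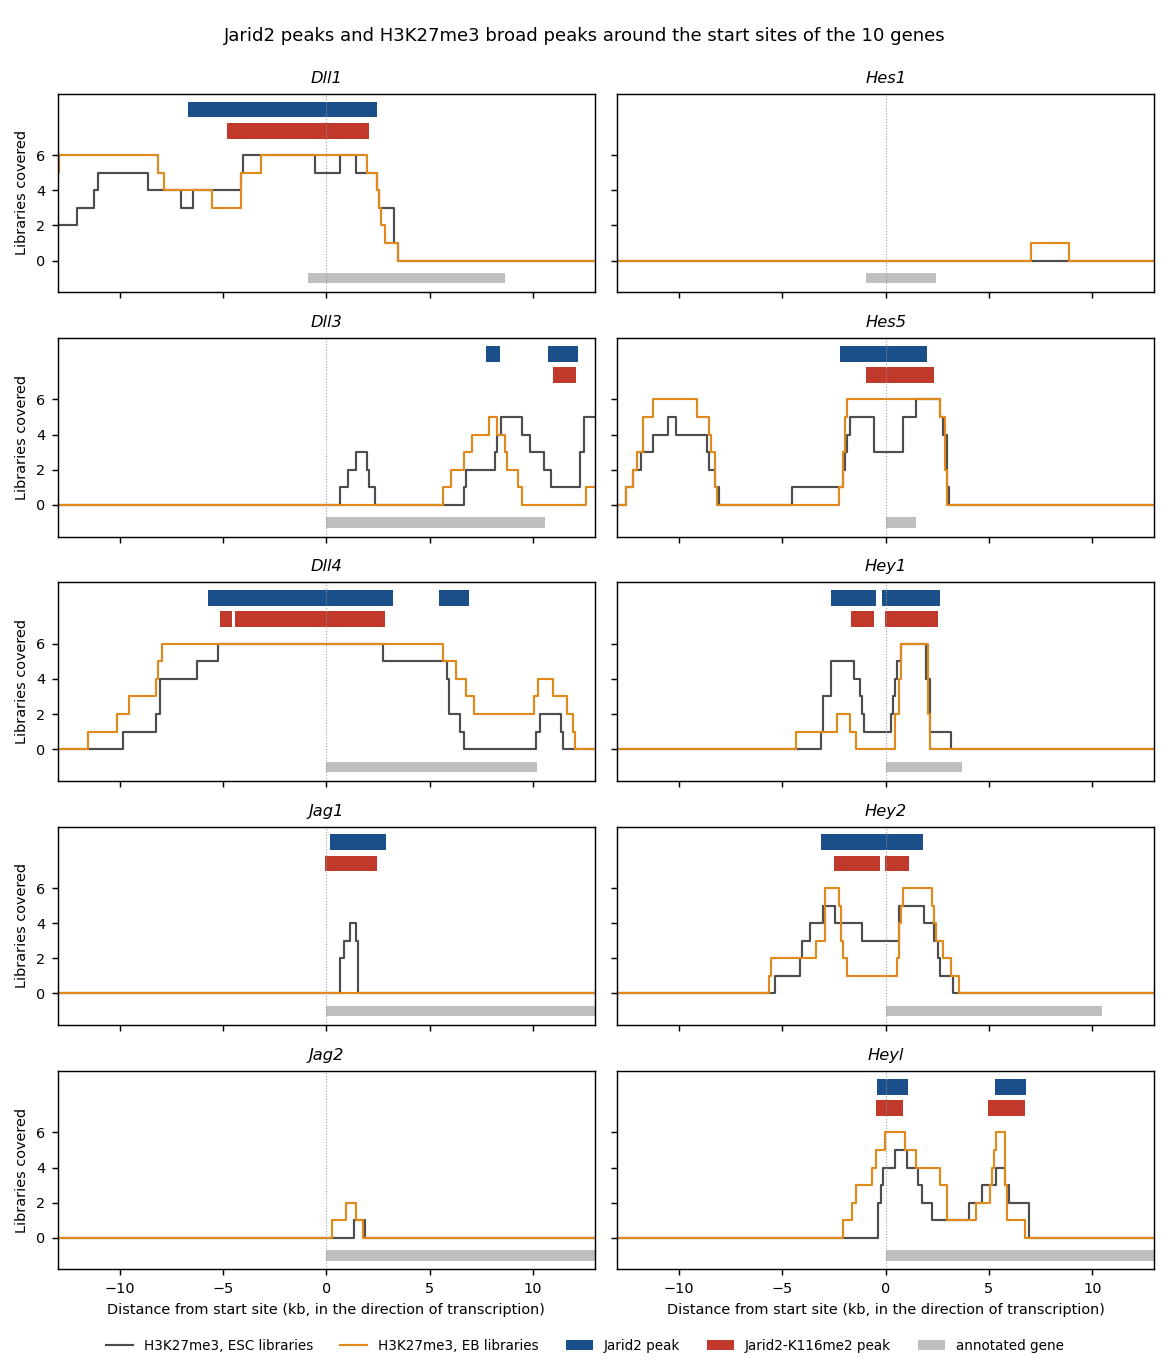
Each panel shows 1 gene from 13 kb before to 13 kb after its start site in the direction of transcription (x axis, kb). Blue and red bars are Jarid2 and Jarid2-K116me2 peaks, the grey bar is the annotated gene, and the lines give the number of the 6 ESC and 6 EB libraries (y axis) whose H3K27me3 broad peaks cover each position. Dll4 was covered in all 6 libraries of both states at its start site, Hey1 had coverage on both sides of the start site in ESC and mainly on the downstream side in EB, and Hes1 had no peak within 5 kb.

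The ligands fell into strong, weak and empty genes. Dll1, the ligand with roles in somites and in neural progenitors, lies at chr17:15504318-15513836 on the minus strand. Its Jarid2 peak (chr17:15510497-15519627) ran from −6687 to +2443 bp relative to the start site and scored 3100. The Jarid2-K116me2 peak (chr17:15510869-15517753) ran from −4813 to +2071 bp with the same score. The score is minus 10 times the log10 of the p-value that the peak caller gave, it is not scaled for depth, and scores pile up at 3100, so that these peaks cannot be ranked among the strongest. With 1 library per antibody, no score here has an error. With widths of 9131 and 6885 bp, the peaks were wider than 96.2% and 95.7% of their lists. Both also cover the start site of a long noncoding RNA, A930024N18Rik, and the peaks cannot assign the signal to one of these genes.

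Dll4, the ligand of endothelial cells, lies at chr2:119151520-119161698 on the plus strand. The main Jarid2 peak (chr2:119145799-119154724) spanned −5721 to +3204 bp and scored 3100. The antibody against the methylated form gave 2 peaks over the same stretch, a peak of 7253 bp over the start site at 3100 and a small one of 587 bp centred at −4842 bp with a score of 96.0. A second Jarid2 peak, within the gene around +6182 bp, scored 156 and had no counterpart in the Jarid2-K116me2 list. The start site of a noncoding RNA, Gm14207, is also under the main peaks.

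Jag1, a ligand of the Serrate type with known roles in the vascular system and the inner ear, lies at chr2:136907192-136942380 on the minus strand. Total Jarid2 scored 699 (chr2:136939517-136942209) and Jarid2-K116me2 scored 691 (chr2:136939951-136942427). The edge of the Jarid2 peak lay 171 bp inside the gene, while that of the Jarid2-K116me2 peak lay at −47 bp, so that only the latter covered the start site. The position of a peak edge has no replicate either.

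Dll3, a divergent ligand that acts in somite formation, lies at chr7:29076673-29087257 on the minus strand and had no peak within 5 kb of its most upstream start site. A weak common region lay beyond its 3′ end. There the Jarid2 peak (chr7:29075085-29076534, 139 bp from the gene) scored 214 and the Jarid2-K116me2 peak (chr7:29075199-29076290, 383 bp from the gene) scored 321. Both cover the start site of the neighbouring gene BC089491. If the peak had to touch the gene itself, Dll3 would lose its Jarid2-K116me2 peak and 7 genes would remain. A Jarid2 peak inside the gene (chr7:29078863-29079533), over an internal start site, scored 62.1, which is the lowest score of the Jarid2 list, and had no Jarid2-K116me2 counterpart. The lowest score of the Jarid2-K116me2 list was 91.9, so that a peak of such a low score could not appear in it.

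Jag2, the other Serrate-type ligand, lies at chr12:114146801-114167706 on the minus strand and had no peak. The nearest Jarid2 peak was 29740 bp away with a score of 674, and the nearest Jarid2-K116me2 peak was 30227 bp away with a score of 606.

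Among the Hes and Hey genes, Hes5 and Hey2 carried the highest scores. Hes5, a Notch target of neural progenitors, lies at chr4:154335032-154336480 on the plus strand and was covered along its whole length. The Jarid2 peak (chr4:154332838-154337023) scored 2494 and the Jarid2-K116me2 peak (chr4:154334068-154337383) scored 3100. The Jarid2 peak began further upstream (−2194 bp against −964 bp) and the Jarid2-K116me2 peak ended further downstream (+2351 bp against +1991 bp). The promoter printed above, with its 2 RBPJ cores, lies within both peaks, as does the start site of a noncoding transcript.

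Hey2, which acts in the developing heart and vessels, lies at chr10:30552165-30562607 on the minus strand. A single Jarid2 peak (chr10:30560805-30565717) spanned −3110 to +1802 bp and scored 2520.3. The Jarid2-K116me2 list split this stretch into a peak over the start site (chr10:30561470-30562626) with a score of 330.1 and an upstream peak (chr10:30562868-30565128) with a score of 1767. The upstream peak ended 261 bp before the start site, so that most of the promoter printed above, RBPJ core included, lay in the gap between both Jarid2-K116me2 peaks and inside the Jarid2 peak. Splits of this kind were found at 2 of the 10 common regions of these genes (Dll4 and Hey2), against 9.24% of all 3896 common regions.

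Hey1, the close relative of Hey2 that is expressed in vessels and somites, lies at chr3:8663362-8667039 on the minus strand and had a pair of regions for both antibodies. The region over the gene scored 1366 for Jarid2 (chr3:8664406-8667240) and 1120.3 for Jarid2-K116me2 (chr3:8664489-8667081). The upstream region scored 351 (chr3:8667506-8669680) and 346 (chr3:8667623-8668723).

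Heyl, the third Hey gene, lies at chr4:122910799-122927118 on the plus strand and also had 2 regions. At the start site Jarid2 scored 309.8 (chr4:122910401-122911863) and Jarid2-K116me2 scored 283 (chr4:122910352-122911613). The region inside the gene, over an internal start site, scored more with both antibodies, 456 for Jarid2 (chr4:122916066-122917594) and 659 for Jarid2-K116me2 (chr4:122915768-122917518). Hes1, the Hes gene used by many tissues, lies at chr16:30064470-30067882 on the plus strand and had the emptiest surroundings of the 10 genes, with the nearest Jarid2 peak 109351 bp away at a score of 63.3 and the nearest Jarid2-K116me2 peak 240237 bp away.

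**Figure D2:**
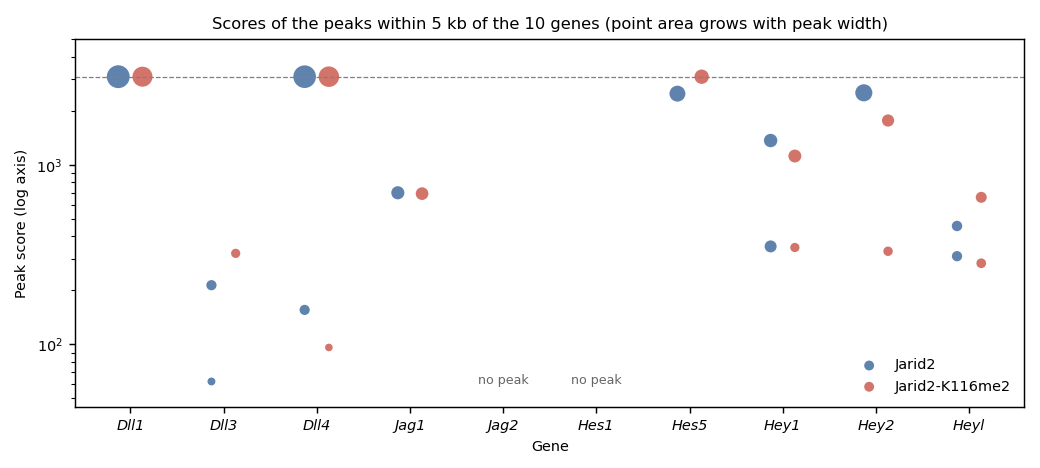
Each point is 1 peak within 5 kb of a gene (x axis), with its score on a log axis (y axis), blue for Jarid2 and red for Jarid2-K116me2, and with an area that grows with its width. The dashed line is the score of 3100 at which scores pile up, reached by Dll1 and Dll4 with both antibodies and by Hes5 with Jarid2-K116me2 only.

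Taking the highest peak of each gene with a peak, the median score of the 8 genes was 1930.2 for Jarid2, against 746 over all genes with a peak, and 1444 for Jarid2-K116me2, against 1030.5. A score of 3100 was reached by 2 and 3 of the 8 genes, and by 19.9% and 26.5% of all genes with a peak. Merging the peaks of both antibodies gave 12 regions at these genes, out of 5001 in all. Of these, 10 were common to both antibodies, 2 were found with Jarid2 only (the intragenic peaks of Dll3 and Dll4), and none with Jarid2-K116me2 only. Over all regions 77.9% were common. In the 7 common regions with scores under 3100, Jarid2-K116me2 scored higher in 2 (the region beyond Dll3 and the internal region of Heyl), against 53.0% of the 2992 such regions of the whole series. The median ratio of the scores was 0.986, against 1.02 over all of them. Without replicates, neither difference between the antibodies has an error. The limit of 3100 also left out the region of Hes5, where Jarid2 scored 2494 and Jarid2-K116me2 scored 3100.

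The question of the H3K27me3 libraries was whether the mark is laid down correctly during differentiation when Jarid2 is absent or cannot be methylated. Here it was measured as the bases covered by a broad peak within 5 kb to each side of the start site, thus out of 10000 bp. Of the 10 genes, 6 had a mean coverage of at least 500 bp over the 12 libraries and were tested (Dll1, Dll4, Hes5, Hey1, Hey2 and Heyl). Dll3, Jag1, Jag2 and Hes1 were below this limit.

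At Dll1 the coverage was 4407 bp at the lowest, 7901 bp at the median and 8402 bp at the highest over the 6 ESC libraries, and 5052, 7228 and 8464 bp over the 6 EB libraries. The means were 7216 ± 1556 bp in ESC and 7038 ± 1154 bp in EB (SD, n = 6 each). Both groups overlapped over nearly their whole range, and the lowest value of each came from WT replicate 1. The full length of the broad peak, beyond the ends of the window, reached 23.0 kb in ESC and 23.2 kb in EB.

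Dll4 filled the window. All 10000 bp were covered in 5 of the 6 ESC libraries and in all 6 EB libraries, and 7725 bp were covered in WT ESC replicate 1. This measure therefore cannot rise further at Dll4. Measured by their full length, the broad peaks ranged from 7.97 to 16.6 kb in ESC (median 14.1 kb) and from 13.8 to 23.4 kb in EB (median 16.0 kb). By this length, chosen after seeing that the window was full, EB exceeded ESC by 4314 bp, with an adjusted p of 0.138 in the exact permutation test.

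The remaining ligands were nearly free of the mark at their start sites. At Jag1 the 6 ESC libraries held 0 bp in KO replicate 1 and WT replicate 1, 379 bp in WT replicate 2, 611 bp in K116A replicate 1, 885 bp in K116A replicate 2 and 952 bp in KO replicate 2, and all 6 EB libraries held 0 bp. At Dll3 coverage was found in 3 ESC libraries (501, 1331 and 1440 bp) and in no EB library. ESC and EB values overlapped at 0 for both genes. At the internal start site of Dll3, outside the window, the mark was found over the weak Jarid2-only peak in 4 of 6 ESC libraries and in 5 of 6 EB libraries. Jag2 was covered in 1 ESC library (463 bp) and in 2 EB libraries (455 and 1493 bp). Hes1 was at 0 bp in all 12 libraries, so that it lacked both Jarid2 and H3K27me3 in this window. A broad peak is a call against a threshold, so that the absence of a call does not show absence of the mark.

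At Hes5 the lowest, the median and the highest coverage were 1197, 4129.5 and 7593 bp in ESC. The EB libraries lay close together, at 4651, 4900.0 and 5232 bp. The means were 4189 ± 2147 bp and 4883 ± 217 bp (SD, n = 6 each). The EB values thus lay within the range of the ESC values. The start site itself was covered in 3 of 6 ESC libraries and in 6 of 6 EB libraries, and the ESC libraries without it were replicate 1 of each line.

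At Hey1 the lowest, the median and the highest coverage were 1197, 3324.5 and 6245 bp in ESC and 1289, 1527 and 4556 bp in EB. The means were 3430.3 ± 1682 bp and 2042 ± 1257 bp (SD, n = 6 each). Here EB was the lower group, but K116A EB replicate 2 lay among the ESC values and WT ESC replicate 1 below all EB values. The upstream region of Hey1 carried the mark in 5 of 6 ESC libraries, over 49.6% to 100% of its length, and in 2 of 6 EB libraries, both K116A, over 24.4% and 52.7%. The region over the gene carried it in all 12 libraries. The start site, near the upstream end of the region over the gene, was covered in 1 library, KO ESC replicate 2.

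At Hey2 the range was 0, 4772 and 8291 bp in ESC and 2245, 3170.0 and 8575 bp in EB (lowest, median, highest), with means of 4597 ± 3042 bp and 4137 ± 2444 bp (SD, n = 6 each). The 0 was that of WT ESC replicate 1, and the groups overlapped widely. The start site was covered in 3 ESC libraries and in 1 EB library, K116A replicate 2. At Heyl the range was 0, 2047 and 5337 bp in ESC and 1088, 4107 and 6626 bp in EB, with means of 2249 ± 1905 bp and 3852 ± 1989 bp (SD, n = 6 each). The 0 was again WT ESC replicate 1. The start site of Heyl was covered in 4 ESC and in all 6 EB libraries.

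**Figure D3:**
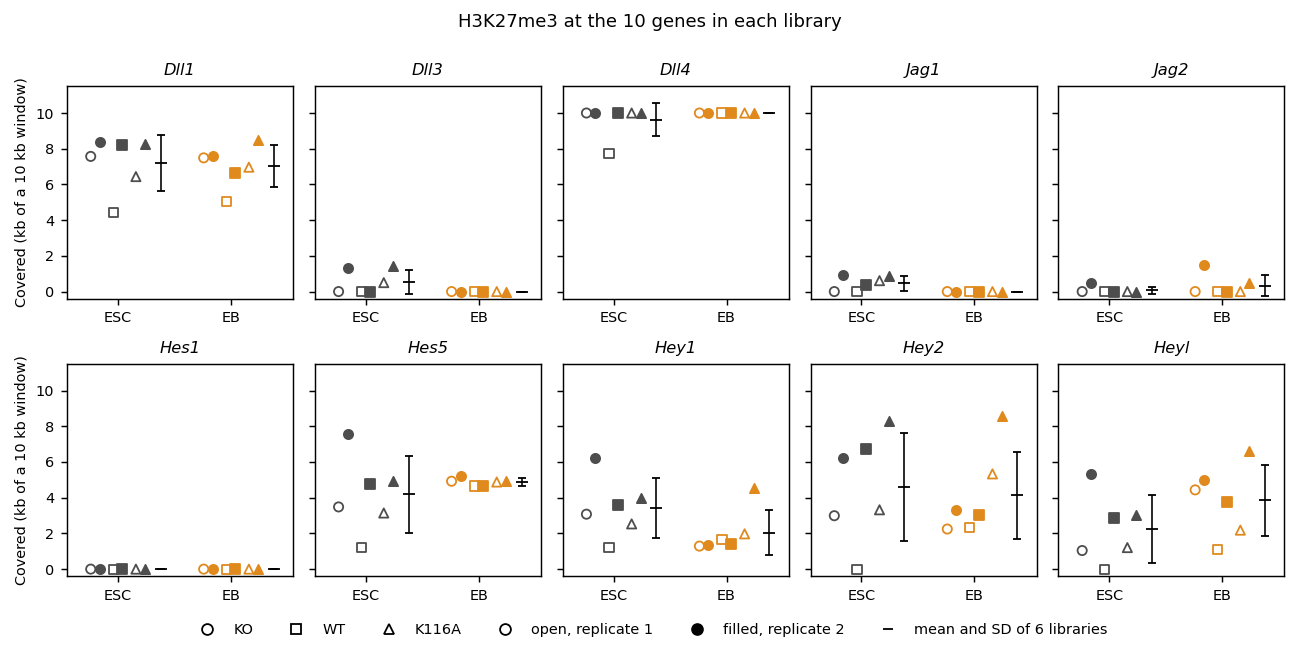
H3K27me3 coverage (y axis, kb out of the 10 kb around the start site) of each gene in each library, with circles for KO, squares for WT and triangles for K116A, open for replicate 1 and filled for replicate 2. Black marks give the mean and SD of the 6 ESC or 6 EB libraries. The ESC and EB values overlap at each of the 6 tested genes, and WT ESC replicate 1 is the lowest ESC library or shares the lowest value at all 10.

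ESC and EB were compared by the exact permutation test over the 12 libraries (two-sided, 924 arrangements, smallest p 0.00216), adjusted by Benjamini-Hochberg over all 4747 genes with a mean coverage of at least 500 bp. None of the 6 genes passed an adjusted p of 0.05, and none had an unadjusted p under 0.05. By comparison, coverage was higher in EB at 14.2% of the 4747 genes and lower at 0.169%. With each library cut to its strongest peaks of a like total length (2.31 Mb), coverage was higher at 9 genes and lower at 16, of 415 that could be tested. The adjusted p of the exact permutation test was 0.264 at Hey1, where EB fell by 1389 bp, 0.298 at Heyl, where EB exceeded ESC by 1602.5 bp, and 0.575 at Hes5, where the difference was 695 bp. At Hey2, Dll1 and Dll4 the exact permutation test gave an adjusted p of 0.851, 0.883 and 1. The median difference (EB minus ESC) over all tested genes was 1215 bp and 78.8% of the differences were positive. The median over the 6 genes was 101 bp. The replicate 1 libraries of ESC were also the 3 with the least genome covered (2.31 to 10.4 Mb), and the part of library yield in this shift was not tested.

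Without WT ESC replicate 1 the counts over all genes changed to 373 higher and 99 lower in EB, and again none of the 6 genes passed. EB then fell by 1835.5 bp at Hey1, with an adjusted p of 0.159 in the exact permutation test. The differences became −739.7 bp at Dll1, 0 bp at Dll4, 96.4 bp at Hes5, −1379 bp at Hey2 and 1153 bp at Heyl. When the 11 remaining libraries were also cut to their strongest peaks of a like total length, an alternative chosen after seeing the data, EB was lower at Dll1 (−7777 bp, adjusted p = 0.0263 in the exact permutation test) and at Hey1 (−2804 bp, adjusted p = 0.0441 in the exact permutation test), with 67 genes higher and 83 lower of 1529. The peak of Dll1 was then no longer among the strongest in any of the 6 EB libraries, so that its coverage counted as 0 bp there. A missed threshold does not show that ESC and EB were alike, and the SDs above are as large as most of the differences. Over all genes, 437 reached the smallest p, and p-values up to 0.00649 passed after adjustment.

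The 3 lines were compared by their values, since 2 libraries against 2 cannot go below p = 0.333 in an exact permutation test. Summed over the 10 genes, H3K27me3 covered 28.2 and 46.5 kb in KO ESC (replicates 1 and 2), 14.5 and 36.6 kb in WT ESC, and 27.8 and 40.8 kb in K116A ESC. These ranges overlapped, and in each line replicate 1 was the lower. Within a replicate number, KO ESC exceeded WT ESC by 13.6 and 9.94 kb (replicates 1 and 2), and K116A ESC exceeded it by 13.2 and 4.18 kb. The first value of each pair is set against WT ESC replicate 1. Without that library WT ESC is left with 36.6 kb, between the replicates of both other lines. In EB it covered 30.4 and 34.0 kb in KO, 24.8 and 29.5 kb in WT, and 31.3 and 43.6 kb in K116A. Both WT values thus lay under those of both other lines in EB. The whole libraries were ordered likewise, since the broad peaks of WT EB covered 19.6 and 22.5 Mb of the genome, those of KO EB 33.6 and 55.0 Mb, and those of K116A EB 23.2 and 37.2 Mb. Libraries cut to their strongest peaks with a total length of 2.31 Mb could not be compared by these sums, since in all WT EB and K116A EB libraries Dll4 then filled its window and the other 9 genes were at 0. In KO EB, Hes5 kept 4922 and 5232 bp, and Dll4 kept 10000 and 0 bp.

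Among the 6 tested genes, both KO EB libraries exceeded both WT EB libraries at 3 (Dll1, Hes5 and Heyl), against 57.7% of the 4747 genes. At Hey1 both KO EB values (1289 and 1375 bp) lay below both WT EB values (1654 and 1400.0 bp). The share of all genes with this order was not computed, so it cannot be said whether Hey1 is unusual. Both K116A EB libraries exceeded both WT EB libraries at 4 (Dll1, Hes5, Hey1 and Hey2), against 41.7%. At Hey2 the K116A EB libraries held 5333 and 8575 bp, the KO EB libraries 2245 and 3293 bp, and the WT EB libraries 2329 and 3047 bp. In ESC, none of the 6 genes had both KO or both K116A libraries above both WT libraries, against 1.45% and 4.49% of the genes. Within a replicate number, KO ESC exceeded WT ESC in both replicates at 4 of the 6 genes (Dll1, Hes5, Hey1 and Heyl), against 34.8% of the 4747 genes, and K116A ESC did so at 5 (those and Hey2), against 30.7%. In replicate 2, which leaves out WT ESC replicate 1, the excess of K116A was 11 bp at Dll1, 164 bp at Hes5, 387 bp at Hey1, 1536 bp at Hey2 and 138 bp at Heyl, and that of KO was 170 bp at Dll1, 2817 bp at Hes5, 2673 bp at Hey1 and 2450 bp at Heyl. In EB, within a replicate number, KO exceeded WT in both replicates at 3 of the 6 genes, against 63.5% of the 4747 genes. K116A EB did so at 5 of the 6, against 48.8%. With 6 genes and 2 replicates, none of these counts was tested.

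**Figure D4:**
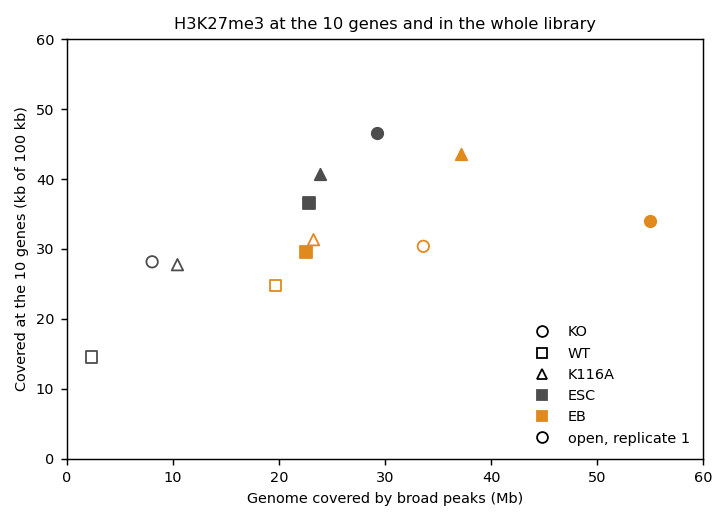
Each point is 1 of the 12 H3K27me3 libraries, with the genome covered by broad peaks on the x axis (Mb) and the sum over the 10 genes on the y axis (kb out of 100 kb); grey is ESC, orange EB, and symbols give the lines. The ESC libraries with 22.8 to 29.2 Mb hold 36.6 to 46.5 kb at these genes, and the EB libraries with 22.5 to 55.0 Mb hold 29.5 to 43.6 kb, with K116A EB replicate 2 (37.2 Mb) among the ESC values.

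Libraries of like yield could be set side by side. WT ESC replicate 2 and K116A ESC replicate 2 covered 22.8 and 23.8 Mb of the genome and 36.6 and 40.8 kb at the 10 genes. WT EB replicate 2 and K116A EB replicate 1 covered 22.5 and 23.2 Mb of the genome and 29.5 and 31.3 kb at the 10 genes. These ESC values were higher than these EB values, with 2 libraries for each state.

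The rest of the pathway was described by a list of 44 genes, also chosen with earlier results of these data known. Of these, 16 (36.4%) had a Jarid2 peak and 15 (34.1%) a Jarid2-K116me2 peak, against 18.1% and 16.0% of all protein-coding genes. Of the 4 receptors, only Notch1 had a peak, a weak one for Jarid2 with a score of 70.2, below the lowest score of the Jarid2-K116me2 list (91.9). Of the 8 protease genes, which include the presenilins of the enzyme that cuts the receptor, only Adam10 had one (149 for Jarid2 and 147 for Jarid2-K116me2). RBPJ itself had no peak, nor had Maml1 and Maml2, the coactivators that join it, whereas Maml3 scored 3100 with both antibodies. Of the 17 genes listed as other ligands, modulators, inhibitors or regulators, 7 had a Jarid2 peak. Lfng, the glycosyltransferase that modifies Notch, scored 2843 and 3039, the atypical ligand Dlk1 scored 2739.8 and 3100, and its relative Dlk2 scored 1566 and 1869.6 for Jarid2 and Jarid2-K116me2. Nrarp, a feedback inhibitor, scored 576 and 543, and the Deltex genes Dtx1 and Dtx4 scored 799.8 and 1397 for Jarid2. The other Hes genes all had a peak of both antibodies, Hes2, Hes6 and Hes7 over a start site of their own, and Hes3 with its highest peak nearest to the start site of Gpr153. The best peak of Rbpjl was likewise nearest to another gene, Matn4.

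Of these 44 genes, 19 could be tested for H3K27me3, and coverage was higher in EB at 3 (15.8%, against 14.2% of all genes tested) and lower at none. Coverage of Hes2 rose from 3091 ± 1608 bp in ESC to 7773 ± 1582 bp in EB (SD, n = 6 each, adjusted p = 0.0361 in the exact permutation test). That of Spen, a corepressor partner of RBPJ, rose from 285 ± 698 bp to 2712 ± 439 bp (adjusted p = 0.0235 in the exact permutation test), and that of Neurl1a, a ubiquitin ligase of the ligands, from 1517 ± 839 bp to 2823 ± 400 bp (adjusted p = 0.0452 in the exact permutation test). Spen and Neurl1a had no Jarid2 peak. Maml3 and Nrarp had lower values in EB, 67.0 ± 164 bp against 3372 ± 2375 bp and 119 ± 291 bp against 2888 ± 2206 bp, which did not pass (adjusted p = 0.0657 and 0.0972 in the exact permutation test). Dtx1 and the listed modulator Poglut1 had higher values in EB, 4749.5 ± 1985 bp against 1744 ± 1301 bp and 2020 ± 1522 bp against 0 bp. These did not pass either (adjusted p = 0.0657 each in the exact permutation test). In alternatives chosen after seeing the data, not all 3 calls of higher coverage held without WT ESC replicate 1. For this list no other single library was left out. Without WT ESC replicate 1, Spen was the 1 gene higher in EB (adjusted p = 0.0369 in the exact permutation test), and Hes2 and Neurl1a did not pass (adjusted p = 0.0530 and 0.0713). Lower in EB were then 3 genes: Maml3, Nrarp and Hes7 (adjusted p = 0.0369, 0.0449 and 0.0449 in the exact permutation test). With the other 11 libraries also cut to a like total length, 9 genes of the list could be tested, and none was higher and 3 were lower in EB (Neurl1b, Hes3 and Hes7). With labels permuted within each line none of the 19 genes passed, nor did any of the 4747 genes tested. Hes2, Spen and Dtx1 had the smallest p that this exact permutation test can give (0.00926), which became 0.0541 after adjustment. The adjusted value depends on how many of the 4747 genes reach this p, and too few did so for any gene to pass.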

How the data were processed

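The study made ChIP-seq libraries of total Jarid2, of Jarid2-K116me2 and of H3K27me3 with inputs, and the input samples had no processed files to use here. According to the methods of the study and the submitters' processing notes, the reads were mapped to mm9 with Bowtie2 2.1.0 (1 mismatch in a seed of 22 bp, a single location for reads with several), and PCR duplicates were removed with PicardTools. Jarid2 peaks were called per sample with MACS 1.4.2 against the input at an FDR of 0.15%, and H3K27me3 peaks with MACS2 2.0.10 in broad mode against the input at an FDR of 5%. No samples were pooled. The deposited files list each peak with a score made by the authors' peak caller, which is not normalised for depth. For the H3K27me3 files the scale of the score is not given in the sources used here, so bases covered were used. A call in a shallow library needs a stronger signal, and the number of reads behind a peak was not available in the files used here, so no interval could be given for a single peak.

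Genes were taken from the GENCODE annotation of NCBIM37, on which all peaks of the 20 chromosomes used lay within the chromosome ends. The start site is that of the most upstream protein-coding transcript. Peaks of both antibodies sharing at least 1 bp were merged into regions. H3K27me3 was tested between ESC and EB with the exact permutation test over the 12 libraries and Benjamini-Hochberg adjustment over all genes with a mean coverage of at least 500 bp in the 10000 bp window. The replicates are biological by the study's methods. The test was checked on data made with known changes, where no gene was called until enough of them reached the smallest p (206 of the 4747 genes tested). Replicate numbers shared by the groups were not taken as pairs in this test. The lines were set side by side within a replicate number as values only. The genes with values in the text were the 10 members and, from the pathway list, those with peaks or with H3K27me3 near or past the threshold. Members and lists were chosen with earlier results of these data known. Python 3.11.15, numpy 2.4.6, scipy 1.17.1 and matplotlib 3.10.9 were used. Alternatives were other distances, windows, score limits, filters, measures, permutation blocks and left-out libraries.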

Additional observations from a re-analysis of the deposited data

Results flagged for a closer look

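Of the 20 groups of 6 libraries (10 genes in ESC and in EB), 4 held a library whose gap to the nearest other one, as a share of the group's range, exceeded Dixon's 95% critical value. That value assumes continuous values, whereas coverage is bounded at 0 and 10000 bp and some groups had no range. Where all other libraries are tied, as at Dll4 and Jag2 in ESC, any single different library is marked. The count of groups was therefore not set against a chance rate. At Dll4, WT ESC replicate 1 had 7725 bp of H3K27me3 coverage, while the other ESC libraries had 10000 bp. At Jag2, KO ESC replicate 2 had 463 bp while the other ESC libraries had 0 bp, and KO EB replicate 2 had 1493 bp while the next EB library had 455 bp. At Hey1, K116A EB replicate 2 had 4556 bp while the other EB libraries had 1289 to 1975 bp.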

How the results depend on the processing

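The counts of genes with a peak kept within 1.5 times of the reported ones under all planned distances, score limits and list sizes. Several H3K27me3 results did not. Of the genes tested, 14.2% were higher and 0.169% lower in EB. These shares were 5.13% and 0.0885% in windows of 1 kb to each side, 6.04% and 0.0897% in windows of 2 kb, 2.17% and 3.86% with the strongest peaks of each library up to the shortest total length, 0% and 0% with labels permuted within each line (where the smallest p was 0.00926), and 5.34% and 0.0612% with no filter. By alternatives chosen after seeing the data, they were 5.75% and 0.211% with the highest peak score, and 4.38% and 5.43% with WT ESC replicate 1 left out and the rest cut to a like total length. In that last setting 2 of the genes described here passed as lower in EB (Dll1 by −7777 bp, adjusted p = 0.0263, and Hey1 by −2804 bp, adjusted p = 0.0441, exact permutation test); over the other settings their adjusted p was at least 0.05. Leaving out each library in turn gave 4.37% to 19.3% higher and 0% to 2.02% lower. The share higher was under 10% without KO ESC replicate 1 (4.37%), K116A ESC replicate 1 (4.47%), K116A EB replicate 2 (6.30%), WT ESC replicate 1 (7.61%), KO EB replicate 2 (8.68%), KO EB replicate 1 (8.96%), K116A ESC replicate 2 (9.19%) and WT ESC replicate 2 (9.27%). Of the genes that passed, 79.0% were higher without WT ESC replicate 1, against 98.8% with it. With the replicate block the shares were 14.5% and 0.169%, and no gene described here passed. The replicate numbers were not taken as pairs in the main test of ESC against EB, since not every pair of groups was over 0.1. Deviations correlated by −0.0667 to 0.648 over 15 pairs of groups, over 0.1 in 5, among them the 3 pairs within ESC. Comparisons of the lines within a replicate number were given as values without a test.

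The differences changed sign at Dll1 (190 and 274 bp in windows of 1 and 2 kb, 934 bp by full length, and −739.7 to 219 bp without single libraries), Dll4 (−1288 bp with the strongest peaks, and 0 to 455 bp without single libraries), Hes5 (−2052 bp with the strongest peaks, −2021 bp without WT ESC replicate 1 and with a like total length, and −821 bp with replicate 2 libraries only), Hey2 (18.2 score units by highest score, and −1379 to 279 bp without single libraries) and Heyl (−208 bp without WT ESC replicate 1 and with a like total length). The cause was not tested. Hey1 was lower in EB in all of them.

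The sums over the 10 genes in EB exceeded WT in KO by 5.04 kb and in K116A by 10.3 kb. These became 0.729 and 1.44 kb in windows of 1 kb, 14.3 and 19.3 kb over whole genes, 0.077 and 0 kb with the strongest peaks (of the 10 genes Dll4 alone was then covered in WT and K116A), and 23.4 and 24.5 kb by full length, and in K116A 3.29 kb in windows of 2 kb. Alternatives by fold enrichment and by a q-value of 0.01 were not run, since the files hold neither. Unequal library yield, 1 library per Jarid2 antibody and 2 per line limit all values.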
